A study of Homo sapiens with 12 samples.

Results

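HOX genes encode homeodomain transcription factors that give cells along the body axis their positional identity. They lie in 4 clusters, A to D, on different chromosomes, where genes of low number sit at one end and genes of high number at the other, and the order along the cluster follows the order of their expression from head to tail. Adult epithelia and their tumours keep part of this code: developing lung expresses genes of the low and middle numbers, and genes of high number are typical of posterior structures. Retinoic acid induces the genes at the low-number end, Polycomb complexes keep silent clusters silent, Trithorax complexes keep active ones active, and PBX and MEIS proteins bind DNA together with HOX proteins.

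The HOX cluster genes described here are the genes whose probe set carries a single symbol made of HOX, a cluster letter and a number. By that rule 28 of the 19775 genes with such a probe set were members, among them 1 gene of cluster A (HOXA2), 10 of cluster B, 9 of cluster C and 8 of cluster D. The RefSeq assembly GRCh38.p14 names 39 HOX genes, and the other genes of cluster A and HOXD3 were not analysed here, HOXD3 because its probe set also carries other symbols. In the annotation used, no probe set with a single symbol named the other genes of cluster A, and the reason is not known. Cluster A therefore rests on HOXA2 alone. Members had 44 probe sets in all. Each gene was followed by the probe set with the highest mean log2 signal over all arrays, and the 16 probe sets not chosen are given as a comparison.

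RNA came from a pair of human lines derived from one lung adenocarcinoma, CL1-0, which is weakly invasive, and CL1-5, which was selected from it for invasiveness. Each line was grown overnight in a microfluidic chip and then held for 2 h in serum-free medium either without a field (0 mV/mm) or under a direct-current electric field of 300 mV/mm, before trypsin release and RNA extraction. The 4 groups of 3 biological replicates were hybridised to 12 Affymetrix arrays of 54675 probe sets. Both lines were handled in the same way, so the field groups and the groups without a field share the chip, the serum-free medium and the trypsin step. The comparisons asked how the lines differ, with and without the field, and whether the field changed expression in either line.

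Levels are log2 MAS5 signals, differences are log2 differences with a standard error (SE) from limma fitted to 13838 genes, and a gene passed the test at a Benjamini-Hochberg adjusted p below 0.05. The number of arrays limits the precision. The median of all probe sets lay between 5.92 and 6.18 on the log2 scale on each array, and signals below it were taken as low. The signal of different probe sets cannot be ranked, because each has its own brightness. On replicate 1 of every group the spike-in control dap had a mean signal between 7.018 and 17.67, while 8 arrays had 906 to 1224, and the 4 low arrays also stood apart in some HOX genes. Replicate 1 was the highest array of its group in all 4 groups for 4 members (HOXB5, HOXC10, HOXC13 and HOXD1) and the lowest for 1 (HOXD8), and its part in the differences was not tested beyond the values within replicate numbers and without these arrays. Of 11 markers of lung adenocarcinoma and airway epithelium, 7 lay above the array median on all 6 arrays of CL1-0 and 6 on all 6 arrays of CL1-5. NKX2-1, SFTPB, KRT7, KRT8 and KRT18 did so in both lines, EPCAM and CDH1 in CL1-0 alone and NAPSA in CL1-5 alone. SFTPD lay above the median on 0 of 12 arrays, KRT19 on 2 and SFTPC on 6. Of all genes, 9904 of 19775 lay above the median on all 12 arrays, so these counts do not establish a cell type. None of the 4 leukocyte markers on the array lay above the median on all arrays of a line, and 1 of 3 endothelial markers (PECAM1) and 1 of 6 fibroblast markers (COL1A1) did.

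Of the 28 members, 17 lay above the array median on all 6 arrays of CL1-0 and 15 on all 6 arrays of CL1-5. On all 12 arrays 12 of 28 did so, beside 9904 of 19775 genes. The lines differed in 14 of the 24 members that could be tested, in the same genes and the same direction with and without the field. In CL1-5, 10 members were lower (HOXA2, HOXB3, HOXB4, HOXB5, HOXC4, HOXC6, HOXC8, HOXC9, HOXC10 and HOXD8) and 4 were higher (HOXB7, HOXB9, HOXD10 and HOXD13). Among all genes tested, 18% passed without the field (9.04% higher, 8.93% lower), 19.4% passed under it (9.83% higher, 9.62% lower) and 14.3% passed in both settings (7.46% higher, 6.88% lower). Passing the filter only through the line where a member is high favours a difference, so the count of 14 is not compared with that background. Over the 12 members above the median on all 12 arrays, a group chosen after the values were seen, 8 passed in each setting (3 higher and 5 lower), beside 16.8% (7.53% higher, 9.23% lower) without the field and 18.8% (8.96% higher, 9.81% lower) under it among the 9904 genes with such levels. The 4 members not tested were HOXB1, HOXB13, HOXC12 and HOXD12. In cultured bulk RNA, fewer cells of a type and less RNA per cell cannot be told apart.

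**Figure D1:**
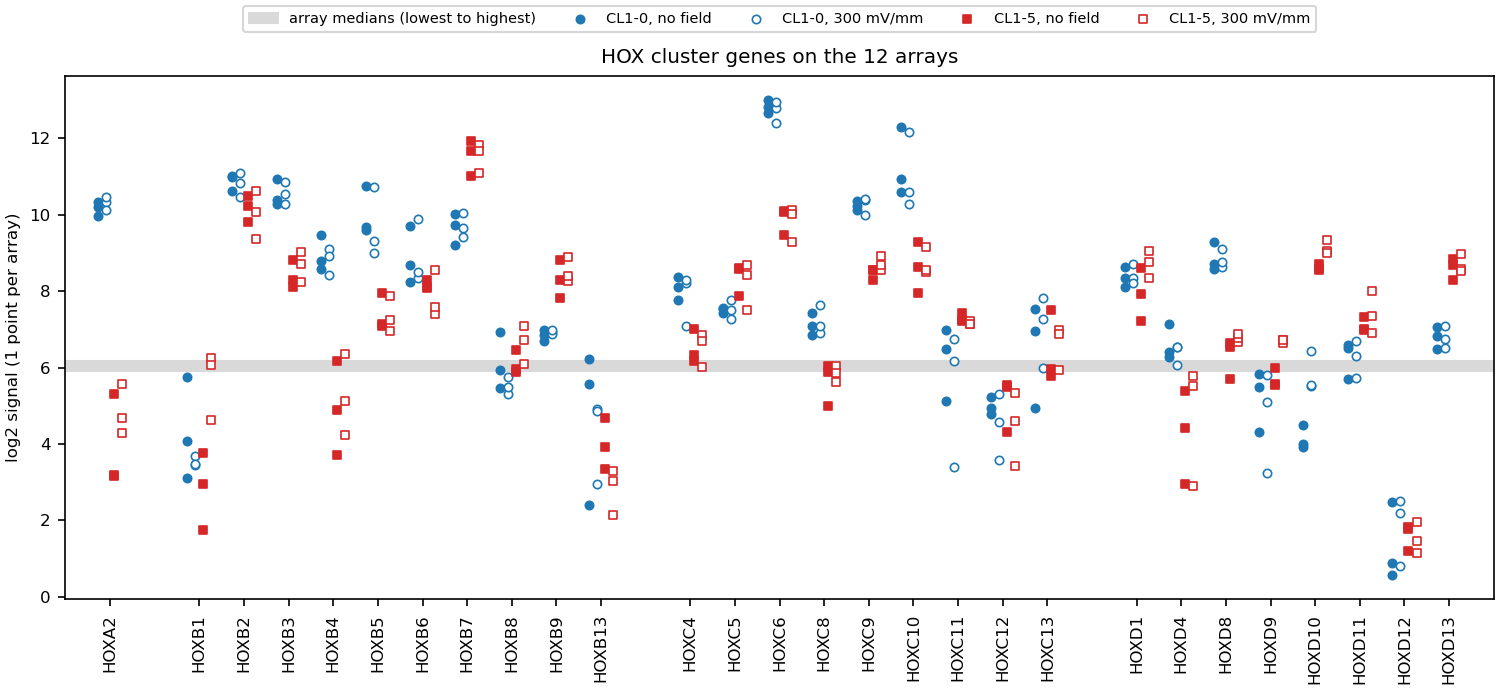
Log2 signal of each HOX cluster gene (chosen probe set) on each of the 12 arrays, 1 point per array, with colours and symbols for the 4 groups of 3 arrays. HOXA2 lies at 9.96 to 10.45 on all CL1-0 arrays and at 3.16 to 5.57 on all CL1-5 arrays, and HOXD10 lies the other way round.

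The calls were also counted by gene number and by cluster. Of 4 tested members numbered 1 to 3, 2 were lower and 0 higher in CL1-5. Of 11 tested members numbered 4 to 8, 6 were lower and 1 higher. Of 9 tested members numbered 9 to 13, 2 were lower and 3 higher. By cluster, 2 genes of B were higher and 3 lower, 5 of C were lower and none higher, and 2 of D were higher and 1 lower, in both settings. The median difference over all 28 members was −0.71 without the field and −0.60 under it. Over all genes tested it was −0.03 and −0.08. The 28 include the 4 members not tested and members that passed the filter only through CL1-0, so the medians are over unlike sets and are not compared. The counts by number and cluster are over neighbouring genes and were not tested for a trend. Among all genes tested, 18% passed without the field (9.04% higher, 8.93% lower) and 19.4% under it (9.83% higher, 9.62% lower). The counts include members that passed the filter only through the line where they are high, so nothing is read from them against these shares.

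HOXA2, the only member of cluster A, which patterns the hindbrain and the cells that form the face and ear, was at high signal in CL1-0 and low in CL1-5. Its CL1-0 values were 10.32, 9.96 and 10.20 without the field and 10.33, 10.13 and 10.45 under it, and its CL1-5 values were 3.18, 5.30 and 3.16 without and 5.57, 4.68 and 4.30 under it. All 6 CL1-5 arrays lay under their array medians, and the lines did not overlap. The difference was −6.28 ± 0.53 without the field (adjusted p = 9.29e-06) and −5.45 ± 0.53 under it (adjusted p = 2.43e-05). After raising every value below its array's median to that median, the fold was still at least 17.2 and 19.2. The start site window of HOXA2 in RefSeq is shown because it is the member with the widest difference between the lines, and it holds 4 copies of the letters CCAAT and 1 of TGATNNAT, a pattern known from joint binding of PBX and HOX proteins; matches are in capitals, on either strand, over 250 bases before and 50 after the start on the minus strand of GRCh38.p14 at chr7:27102634-27102933.
HOXA2: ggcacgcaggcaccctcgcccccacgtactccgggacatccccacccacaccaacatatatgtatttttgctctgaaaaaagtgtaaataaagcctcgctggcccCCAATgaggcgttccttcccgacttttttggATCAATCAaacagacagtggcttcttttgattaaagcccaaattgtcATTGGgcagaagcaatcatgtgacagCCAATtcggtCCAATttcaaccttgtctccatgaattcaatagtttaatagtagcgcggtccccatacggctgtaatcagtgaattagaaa

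**Figure D2:**
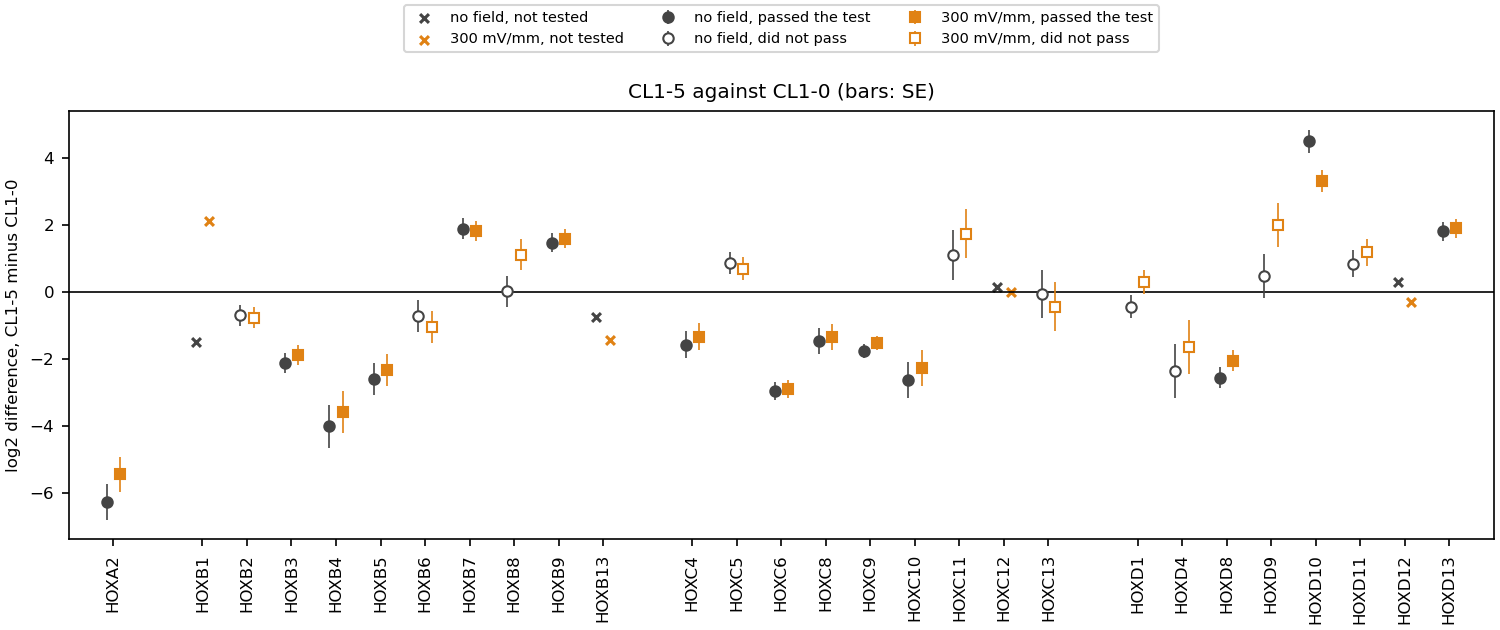
Difference between the lines for each HOX cluster gene, CL1-5 minus CL1-0 in log2 units, without the field and under it, with bars of 1 SE; filled symbols passed the test at an adjusted p of 0.05. The 10 lower and 4 higher members are the same in both settings.

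In cluster B the genes numbered 3 to 5 were lower and HOXB7 and HOXB9 were higher. HOXB3, a regulator of hindbrain and thyroid development, lay at 10.38, 10.29 and 10.94 in CL1-0 without the field and at 8.11, 8.29 and 8.81 in CL1-5, with 10.54, 10.28 and 10.86 against 8.24, 8.72 and 9.03 under the field. The difference was −2.13 ± 0.29 (4.39-fold, adjusted p = 0.000306) and −1.89 ± 0.29 under the field (adjusted p = 0.000722), and no array of one line reached the other. HOXB4, which promotes self-renewal of blood stem cells, was at 9.46, 8.58 and 8.80 against 3.70, 6.17 and 4.90 without the field and at 9.09, 8.43 and 8.92 against 4.23, 5.12 and 6.35 under it. It was low on most CL1-5 arrays and high on all of CL1-0, a difference of −4.02 ± 0.63 (adjusted p = 0.000876) and −3.58 ± 0.63 (adjusted p = 0.00197), which is at least 7.21-fold and 6.28-fold after the same raising of low values.

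HOXB5, which acts in lung branching and in the gut nervous system, reached 10.76, 9.67 and 9.61 on the CL1-0 arrays and 7.96, 7.08 and 7.15 on those of CL1-5 without the field, with 10.73, 8.99 and 9.32 against 7.87, 6.96 and 7.24 under it. Replicate 1 was the highest array of its group in all 4 groups, so replicate 1 was compared with replicate 1: within the numbers 1, 2 and 3 the difference was −2.80, −2.58 and −2.46 without the field and −2.86, −2.04 and −2.09 under it. The fit gave −2.61 ± 0.48 (6.12-fold, adjusted p = 0.00244) and −2.33 ± 0.48 (adjusted p = 0.00488). HOXB7, reported as overexpressed in several carcinomas, went the other way, with 10.03, 9.73 and 9.21 in CL1-0 and 11.02, 11.94 and 11.67 in CL1-5 without the field, and 10.05, 9.66 and 9.41 against 11.10, 11.81 and 11.67 under it. Its difference was 1.89 ± 0.31 (3.70-fold, adjusted p = 0.00121) and 1.82 ± 0.31 (adjusted p = 0.00157).

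HOXB9, which acts in the thoracic skeleton and in mammary gland, was at 6.97, 6.70 and 6.84 against 7.82, 8.29 and 8.81 without the field, and at 6.92, 6.88 and 6.98 against 8.27, 8.88 and 8.39 under it. The difference was 1.47 ± 0.29 (2.78-fold, adjusted p = 0.00432) and 1.59 ± 0.29 (adjusted p = 0.00267). The other cluster B members did not pass. HOXB2 was at −0.70 (adjusted p = 0.160) and −0.77 (adjusted p = 0.111, and 0.0485 with the replicate number as a block). HOXB6 was at −0.72 (adjusted p = 0.366) and −1.05 (adjusted p = 0.154, and 0.0172 with the block). HOXB8, of which 5 of 12 arrays lay above the median, was at 0.01 and 1.11 (adjusted p = 0.122).

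All 5 cluster C genes that passed were lower in CL1-5. HOXC6, which acts in mammary gland development, was at 12.65, 12.82 and 13.01 in CL1-0 without the field and at 9.46, 10.08 and 10.10 in CL1-5, and at 12.79, 12.41 and 12.94 against 9.29, 10.11 and 10.03 under it. The difference was −2.95 ± 0.27 (7.71-fold, adjusted p = 1.59e-05) and −2.90 ± 0.27 (adjusted p = 1.76e-05), and no CL1-5 array reached the lowest CL1-0 array. HOXC9, which sets thoracic identity in spinal motor neurons, was at 10.11, 10.23 and 10.37 against 8.29, 8.54 and 8.54 without the field, and at 10.38, 9.98 and 10.41 against 8.54, 8.93 and 8.68 under it. Its difference was −1.78 ± 0.21 (3.44-fold, adjusted p = 0.000103) and −1.54 ± 0.21 (adjusted p = 0.000316).

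HOXC10, which acts in hindlimb innervation, stood apart on replicate 1, where its value was 12.29 against 10.92 and 10.59 in CL1-0 without the field. It was 12.16 against 10.60 and 10.29 in CL1-0 under the field, with 9.29, 8.63 and 7.95 in CL1-5 without it and 9.15, 8.49 and 8.56 under it. Within the numbers 1, 2 and 3 the difference was −3.0, −2.29 and −2.64 without the field and −3.01, −2.11 and −1.73 under it, so all numbers went the same way. The fit gave −2.64 ± 0.54 (6.24-fold, adjusted p = 0.00523) and −2.28 ± 0.54 (adjusted p = 0.0116), and −2.46 and −1.92 over the arrays with spike-in signal alone. HOXC4, which acts in activated B cells as well as in the embryo, and HOXC8, which acts in the limb and thoracic spine, differed less. HOXC4 was at 8.10, 7.78 and 8.37 against 6.34, 7.01 and 6.17 without the field and at 8.20, 7.10 and 8.28 against 6.01, 6.86 and 6.69 under it, a difference of −1.58 ± 0.40 (adjusted p = 0.0164) and −1.34 ± 0.40 (adjusted p = 0.0337). HOXC8 was at 7.42, 6.85 and 7.08 against 5.88, 6.03 and 5.0 without the field and at 7.63, 6.91 and 7.08 against 6.04, 5.87 and 5.62 under it, a difference of −1.48 ± 0.39 (adjusted p = 0.0202) and −1.36 ± 0.39 (adjusted p = 0.0281), in a probe set above the median on the 6 CL1-0 arrays and on 0 of CL1-5, which is at least 2.07-fold and 2.24-fold after raising low values. The lines did not overlap in HOXC8 in either setting, while the calls of both genes depended on single arrays. Without the field HOXC4 lost its call without replicate 3 of CL1-0 (adjusted p = 0.0675) or of CL1-5 (0.0651), and under it without replicate 1 of CL1-0 (0.108), replicate 3 of CL1-0 (0.131), replicate 1 of CL1-5 (0.105) or replicate 3 of CL1-5 (0.0640). HOXC8 lost it without the field when any of 3 arrays was left out, replicate 1 (0.0714) or 3 (0.0566) of CL1-0 and replicate 3 of CL1-5 (0.0787), and under it when CL1-0 lacked replicate 1 (0.105) or 3 (0.0655) or CL1-5 lacked replicate 2 (0.0626) or 3 (0.0869). The other 12 members kept their calls in each of the 12 fits that left out 1 array.

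The cluster C members that did not pass went both ways. HOXC5 was at 0.86 ± 0.34 without the field (adjusted p = 0.105; 0.0221 when blocked by replicate) and 0.69 under it (adjusted p = 0.184). HOXC11 was at 1.10 ± 0.74 (adjusted p = 0.373) and 1.74 ± 0.74 (adjusted p = 0.129), with its CL1-5 values between 7.15 and 7.42 and its CL1-0 values between 3.39 and 6.97, so the 6 arrays of one line did not overlap those of the other. HOXC13 was at −0.07 and −0.44. HOXC4 and HOXC5 share a start site in RefSeq while HOXC4 was lower and HOXC5 did not pass, and their common window is shown for that reason, on the plus strand of GRCh38.p14 at chr12:54016638-54016937, with its 2 CCAAT matches in capitals.
HOXC4 and HOXC5: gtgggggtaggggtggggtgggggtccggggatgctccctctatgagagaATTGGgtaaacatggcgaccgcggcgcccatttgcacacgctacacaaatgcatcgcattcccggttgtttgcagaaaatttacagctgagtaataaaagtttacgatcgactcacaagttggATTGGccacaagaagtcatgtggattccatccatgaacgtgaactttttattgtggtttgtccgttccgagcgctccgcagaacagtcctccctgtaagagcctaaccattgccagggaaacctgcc

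Cluster D held changes of both directions within one cluster. HOXD8, a gene of the middle of the cluster, reached 8.59, 8.70 and 9.28 on the CL1-0 arrays and 5.69, 6.53 and 6.63 on those of CL1-5 without the field, with 8.63, 8.76 and 9.09 against 6.66, 6.77 and 6.87 under it. The difference was −2.57 ± 0.31 (5.95-fold, adjusted p = 0.000132) and −2.06 ± 0.31 (adjusted p = 0.000681). HOXD10, which acts in limb and lumbar patterning and is known as a suppressor of invasion in breast tumours, was the member with the widest increase. Its values were 4.49, 4.00 and 3.91 in CL1-0 and 8.56, 8.60 and 8.70 in CL1-5 without the field, and 5.53, 5.55 and 6.44 against 9.35, 9.05 and 9.01 under it. It was above its array's median on 7 of 12 arrays, which were all 6 of CL1-5 and 1 of CL1-0. The difference was 4.49 ± 0.33 (adjusted p = 3.95e-06) and 3.30 ± 0.33 (adjusted p = 3.37e-05), which is at least 6.22-fold and 7.90-fold after raising low values. HOXD13, which shapes the digits, was at 6.49, 7.06 and 6.82 against 8.84, 8.67 and 8.29 without the field and at 6.51, 7.10 and 6.76 against 8.96, 8.58 and 8.52 under it, a difference of 1.81 ± 0.28 (3.51-fold, adjusted p = 0.000766) and 1.90 ± 0.28 (adjusted p = 0.000556). The start site windows of HOXD8, HOXD10 and HOXD13 are shown because these genes of one cluster went opposite ways. They lie on the plus strand of GRCh38.p14 at chr2:176129455-176129754, chr2:176116528-176116827 and chr2:176092471-176092770, with CCAAT and TATAAA matches in capitals.
HOXD8: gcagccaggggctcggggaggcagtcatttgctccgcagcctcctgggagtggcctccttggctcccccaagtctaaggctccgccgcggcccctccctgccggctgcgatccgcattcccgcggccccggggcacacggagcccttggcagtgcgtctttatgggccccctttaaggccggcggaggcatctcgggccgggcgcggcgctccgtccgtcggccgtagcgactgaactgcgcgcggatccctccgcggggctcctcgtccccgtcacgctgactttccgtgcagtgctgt
HOXD10: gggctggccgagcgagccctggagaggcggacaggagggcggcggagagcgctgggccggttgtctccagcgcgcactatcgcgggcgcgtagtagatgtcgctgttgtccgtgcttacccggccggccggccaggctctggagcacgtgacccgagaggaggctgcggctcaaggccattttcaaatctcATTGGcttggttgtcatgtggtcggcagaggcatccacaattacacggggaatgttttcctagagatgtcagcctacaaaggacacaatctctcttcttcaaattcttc
HOXD13: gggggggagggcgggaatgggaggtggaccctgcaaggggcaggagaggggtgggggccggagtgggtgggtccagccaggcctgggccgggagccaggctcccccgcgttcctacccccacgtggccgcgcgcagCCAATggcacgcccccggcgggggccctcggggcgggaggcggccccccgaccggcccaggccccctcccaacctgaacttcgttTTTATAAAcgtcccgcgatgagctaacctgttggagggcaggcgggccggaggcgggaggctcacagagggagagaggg

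The remaining cluster D genes were not called. HOXD4, above the median on 5 of 12 arrays, was at −2.36 ± 0.81 (adjusted p = 0.0649; 0.0328 when blocked by replicate) and −1.64 ± 0.81 (adjusted p = 0.191), and its 6 CL1-5 arrays lay below its CL1-0 arrays. All 6 were below the array median, and raising low values left at least 1.46-fold and 1.27-fold. HOXD11 was at 0.84 ± 0.40 and 1.18 ± 0.40 (adjusted p = 0.0619 under the field, and 0.0172 with the block), with its CL1-5 arrays above its CL1-0 arrays. HOXD9 was at 0.48 and 1.99 ± 0.66 (adjusted p = 0.0532 under the field, and 0.0208 with the block), in a probe set above the median on 3 of 12 arrays, all of CL1-5 under the field. With low values raised, the difference under the field was 0.66, and the other HOXD9 probe set gave −1.69 there. HOXD1 was at −0.44 and 0.29. Over the 24 tested members, the 6 arrays of each line did not overlap in 17, with CL1-5 above in 6 and below in 11, beside 22.4% of all genes tested (10.8% above, 11.6% below). With the replicate block, 5 members were higher and 11 lower without the field and 6 and 12 under it, beside 35.6% of all genes (16.7% higher, 18.8% lower) and 38.1% (17.4% higher, 20.8% lower). Both counts include members that passed the filter only through the line where they are high, so nothing is read from them against all genes.

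Genes with several probe sets gave a check that the choice of probe set did not use. Here p was adjusted over all 54675 probe sets. HOXB7 was higher on all 3 of its probe sets without the field (1.89, 1.72 and 1.56, with adjusted p = 0.00215, 0.00137 and 0.0100). HOXD10 was higher on its chosen probe set (4.49) and a second (4.93 ± 0.79, adjusted p = 0.00176), and the third was at 3.70 ± 1.09 (adjusted p = 0.0697). The other HOXD13 probe sets were at 2.74 ± 1.24 and 1.86 ± 0.76 and did not pass (adjusted p = 0.293 and 0.223), beside 1.81 on the chosen one. The second probe sets of HOXB3 and HOXB5 did not pass either, at −0.77 ± 0.56 (adjusted p = 0.609) and −1.39 ± 0.44 (adjusted p = 0.0922), where the chosen ones were at −2.13 and −2.61. HOXB9 differed between its probe sets: the other one, whose name marks it as possibly binding related transcripts, gave 0.25 without the field and 1.08 under it and did not pass, where the chosen one gave 1.47 and 1.59, and the mean of both probe sets gave 0.86 without the field (adjusted p = 0.0454). Probe sets disagreed in direction for HOXB6 (−0.72 and 0.32), HOXB8 (0.01 and −0.40), HOXD1 (−0.44 and 0.08), HOXD9 (0.48 and −0.30) and the untested HOXB1 (−1.49 and 0.52) without the field, all members that did not pass. HOXD4 was at −2.36 on one probe set and −3.76 on the other. HOX genes share a homeobox, so probes for one member can bind another. The name of the HOXB5 probe set at −1.39 and of the HOXB7 probe set at 1.72 carries the same mark as that of HOXB9. The chosen probe sets of HOXB5, HOXB7 and HOXC6 carry another mark, s, for probes that may match several transcripts, so they are not free of this limit. How far such binding happened here was not tested.

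**Figure D3:**
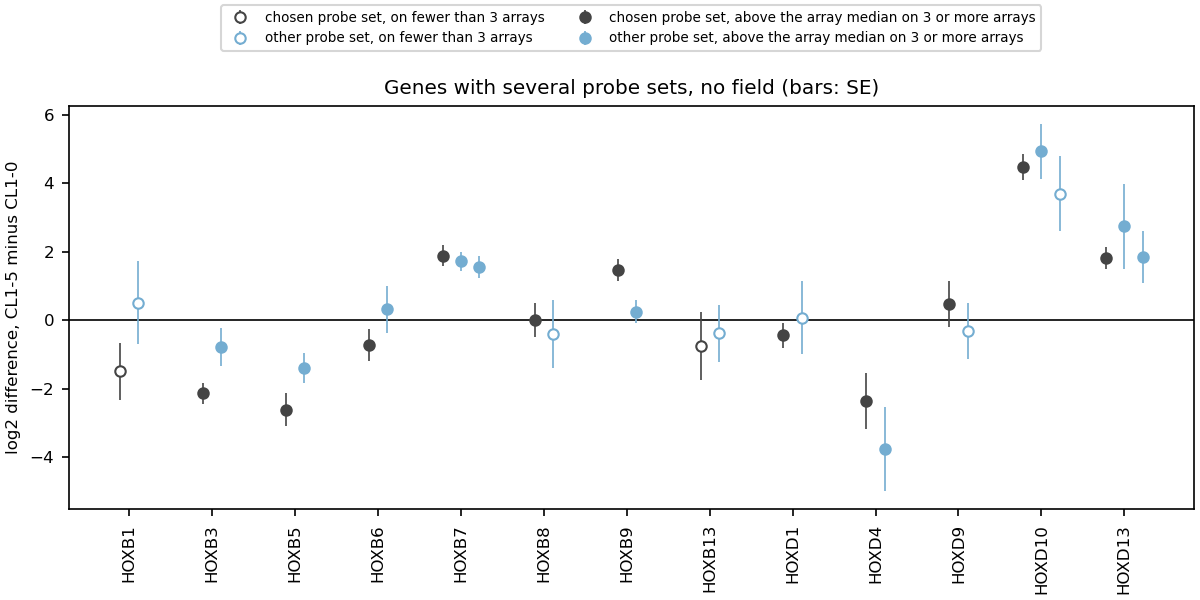
Difference between the lines without the field, CL1-5 minus CL1-0 in log2 units, for every probe set of the 13 members with several, with bars of 1 SE. All probe sets of a gene lie on the same side of 0 for HOXB3, HOXB5, HOXB7, HOXB9, HOXB13, HOXD4, HOXD10 and HOXD13, and on opposite sides for HOXB6, HOXB8, HOXD1, HOXD9 and HOXB1.

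The field gave no call. In limma, 0 of 13838 genes passed for the field in CL1-0 or in CL1-5 or for the interaction of field and line. The fit with the replicate block also gave 0 in each. In the main limma fit 133, 253 and 147 genes had an unadjusted p below 0.05. That is less than the share of 0.05 that evenly spread p values would give, so these p values ran high, and the cause was not tested. The percentage called was 0% in every field comparison. Of the 24 tested members, 1 in each comparison had an unadjusted p below 0.05. The 95% interval of the difference stayed within 2-fold either way for 12 members in CL1-0 and for 9 in CL1-5, and for the rest the interval held changes above 2-fold. These intervals are from the fit without the replicate block, and the counts depend on that choice. With the block the SE fell from 0.54 to 0.23 for HOXC10 and from 0.48 to 0.21 for HOXB5, and rose from 0.46 to 0.49 for HOXB8. The estimates lay between −0.75 and 1.71 in CL1-0 and between −0.31 and 1.0 in CL1-5.

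HOXD10 had the smallest p in CL1-0. It was at 4.49, 4.00 and 3.91 without the field and 5.53, 5.55 and 6.44 under it, so the groups did not overlap, and within the replicate numbers it was higher by 1.04, 1.55 and 2.53. The limma estimate was 1.71 ± 0.33, with an unadjusted p of 0.000252 and an adjusted p of 0.9999. Only 1 of these 6 values lay above its array's median, so raising low values to the median left 1.13-fold, and the other HOXD10 probe sets gave 0.50 ± 0.79 and 0.92 ± 1.09. In CL1-5 HOXD10 was at 8.56, 8.60 and 8.70 without and 9.35, 9.05 and 9.01 under the field, also without overlap, a difference of 0.52 ± 0.33. The interaction of field and line was −1.19 ± 0.47 (limma unadjusted p = 0.0262, adjusted p = 0.9999). It turned to 0.35 with low values raised, and the other HOXD10 probe sets gave −0.11 ± 1.11 and −0.37 ± 1.54. HOXB8 came next in CL1-0 with −0.58 ± 0.46 (limma unadjusted p = 0.235, adjusted p = 0.9999).

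In CL1-5 the smallest p was that of HOXD1, a gene at the low-number end of cluster D, at 8.61, 7.22 and 7.93 without the field and 9.06, 8.33 and 8.75 under it. Its difference was 0.79 ± 0.35 (limma unadjusted p = 0.0417, adjusted p = 0.9996) and the groups overlapped. HOXA2 followed with 0.97 ± 0.53 (limma unadjusted p = 0.0896, adjusted p = 0.9996) at values below the median on all CL1-5 arrays. HOXC9, HOXD8, HOXD9 and HOXD10 were higher under the field on all 3 arrays than on any without it, 4 of 24 members beside 3.11% of all genes in that direction, and none of the 4 passed. HOXD9 passed the filter only through its 3 CL1-5 arrays under the field, which favours such a separation, so the count is not read against that share. In CL1-0 only HOXD10 did not overlap, 1 of 24 and higher, beside 1.89% of all genes in that direction.

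**Figure D4:**
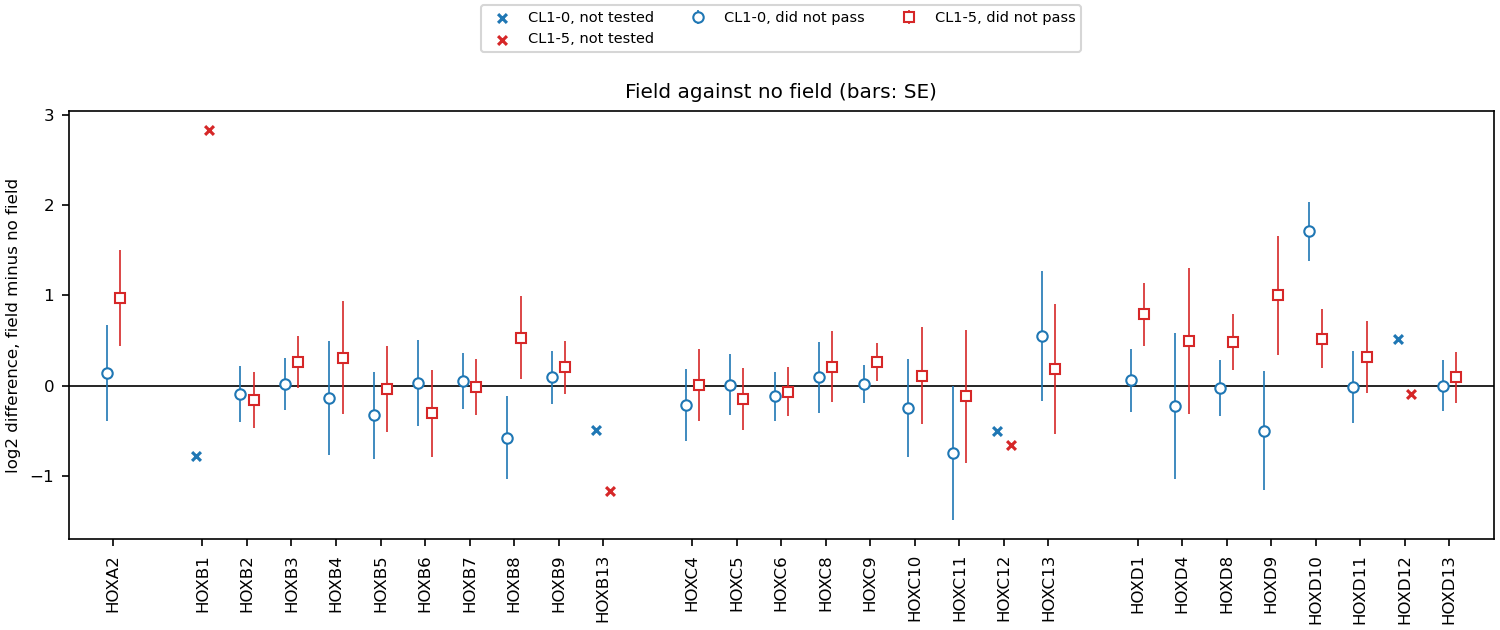
Field response of each HOX cluster gene in log2 units, field minus no field, in CL1-0 and CL1-5, with bars of 1 SE; crosses are the 4 members not tested. No member passed the test, and HOXD10 in CL1-0 (1.71) is the widest estimate among tested members.

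Genes that work with or on the HOX clusters were compared between the lines in the same fit, where 18% of all genes passed without the field and 19.4% under it (35.6% and 38.1% with the replicate block). The counts per list are read beside these shares, and nothing particular to a list is read from them. Of 10 tested cofactors (11 listed), 0 were higher and 2 lower without the field and 1 was higher and 3 lower under it (1 and 2, and 3 and 3, with the replicate block). MEIS1, a HOX partner, was lower at −1.55 ± 0.35 and −1.42 ± 0.35 (adjusted p = 0.00859 and 0.0133), and so was PBX4 at −1.34 and −0.96. PBX2 was at 1.19 without the field (adjusted p = 0.0715) and 1.44 under it (adjusted p = 0.0305), and MEIS3 was at −1.37 (adjusted p = 0.175) and −2.18 (adjusted p = 0.0309); 0 genes passed for the interaction of field and line. Among the antisense RNAs and neighbours of the clusters, 15 were tested of 28 listed, with 0 higher and 2 lower without the field and 0 and 3 under it (1 and 4, and 1 and 5, with the block). SKAP2, an adaptor protein gene beside cluster A, was lower at −2.21 ± 0.25 and −2.59 ± 0.25 (adjusted p = 7.80e-05 and 2.49e-05). HOXA-AS2, transcribed from cluster A, was at −3.69 (adjusted p = 0.0266) and −2.78 (adjusted p = 0.0809), HOXA-AS3 at −2.63 (adjusted p = 0.0809) and −4.51 (adjusted p = 0.00598), and HOXD-AS2 at −2.76 (adjusted p = 0.0569) and −3.67 (adjusted p = 0.0146). These RNAs were above the median on at most 2 of 6 CL1-5 arrays, and raising low values left at least 4.56-fold and 4.38-fold for HOXA-AS2, 1.34-fold and 2.34-fold for HOXA-AS3, and 2.01-fold and 2.20-fold for HOXD-AS2. HOTAIR, the antisense RNA of cluster C, lay above the median on 0 of 12 arrays.

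Among the regulators, of 21 tested Polycomb genes (25 listed), 1 was higher and 4 lower in CL1-5 in both settings, and with the replicate block 4 and 5 without the field and 5 and 5 under it. JARID2, an accessory subunit of Polycomb repressive complex 2, was higher at 1.96 and 2.09 (adjusted p = 0.0330 and 0.0233), and CBX2 and PCGF2 of complex 1 and EZH2, the methyltransferase of complex 2, were lower at −1.72 and −1.58, −1.24 and −1.30, and −0.91 and −1.25, the last with adjusted p = 0.0388 and 0.00759. Of 14 tested Trithorax and H3K27 demethylase genes (15 listed), 1 was lower and 0 higher, KMT2D, a histone H3K4 methyltransferase, at −1.63 and −2.0 (adjusted p = 0.00730 and 0.00201), with 0 higher and 3 lower without the field and 1 and 4 under it in the blocked fit. In the retinoic acid list 10 of 14 entries were tested, with 3 lower and 0 higher in both settings and 4 lower and 0 higher with the block: CYP26A1, which degrades retinoic acid, at −5.32 and −5.39 (adjusted p = 7.09e-05 and 7.01e-05), the receptor gene RARB at −4.45 and −3.58 (adjusted p = 9.00e-07 and 4.95e-06), and DHRS3, a retinaldehyde reductase, at −3.66 and −3.22 (adjusted p = 0.000618 and 0.00155). CYP26A1 was above the array median on 0 of 6 CL1-5 arrays, and its fold after raising low values was at least 21.1 and 19.5. CRABP2, a retinoic acid carrier, was at 1.22 and 1.08, and CYP26B1, which also degrades retinoic acid, at 0.37 and 0.86, and neither passed. Of the 6 ParaHox genes, 1 was tested (GSX2) and did not pass. No gene of any of these lists passed in the field comparisons.

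**Figure D5:**
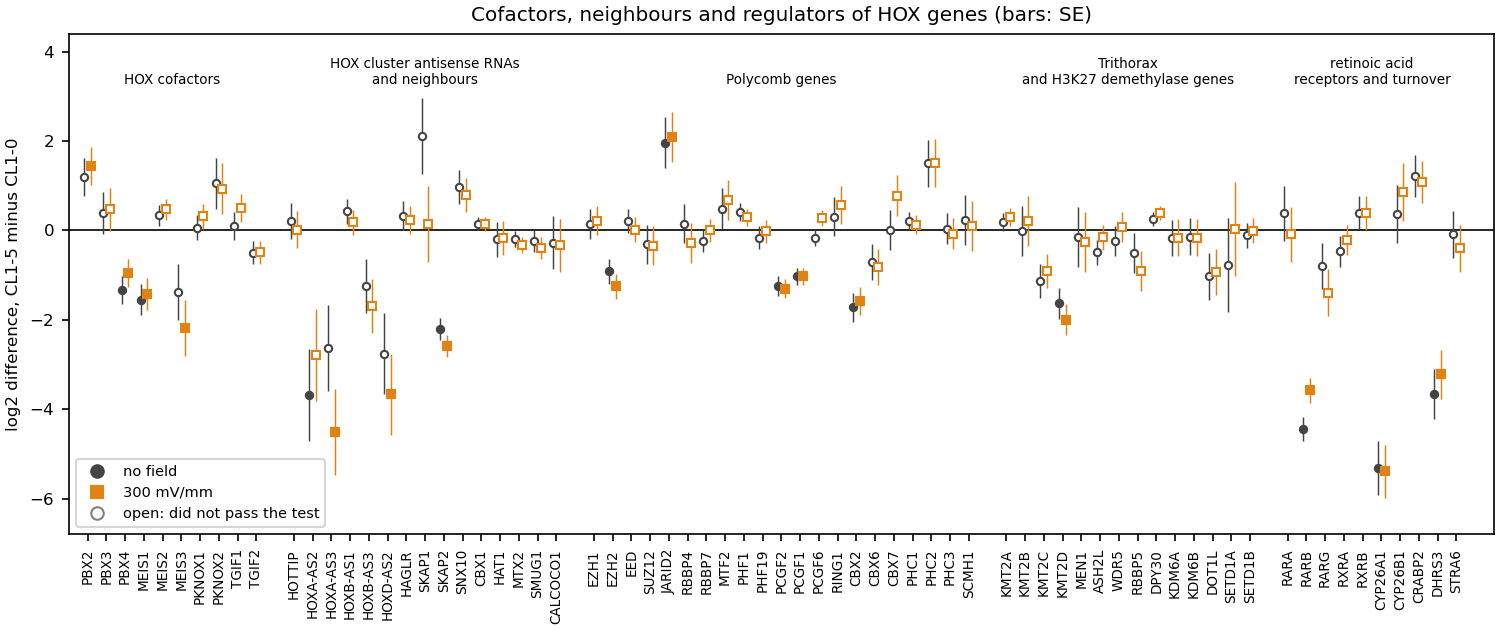
Difference between the lines, CL1-5 minus CL1-0 in log2 units, for the tested genes of the lists of cofactors, cluster neighbours, Polycomb, Trithorax and retinoic acid genes, with bars of 1 SE. CYP26A1, RARB and DHRS3 are the lowest of the retinoic acid list and SKAP2 is among the lower neighbours.

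RefSeq gave a start site window of 300 bases for 11 of 28 members, which are 10 distinct sequences, and each motif was searched on both strands in these and in 35114 windows in all. The letters CCAAT were found in 8 of 10, beside 34.6% of all windows, TGATNNAT in 3 beside 7.4%, TATAAA in 1 beside 11.5% and TAATTA in 1 beside 4.84%. A direct repeat bound by retinoic acid receptors was searched only as an exact string with a fixed spacing. That string was in 0 of 10, beside 0.0057% of all windows. It is so rare that its absence cannot show whether these windows lack sites for the receptors. Other spellings and spacings were not searched. The windows held 11 CpG dinucleotides in HOXA2, 15 in HOXC4, 34 in HOXD8, 23 in HOXD10 and 24 in HOXD13, beside a median of 14 over all windows. A match is a description of letters and not a bound site.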

How the data were processed

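Signals of 54675 probe sets on 12 Affymetrix arrays were used. The deposited values are linear intensity units and, per the submitters' processing notes, came from MAS5; which version, calls or scaling were used the sources used here do not say. The 3691 signals under 1 were raised to 1 before log2, and arrays were not scaled further. A gene took its single-symbol probe set with the highest mean and was tested if that lay above its own array's median on at least 3 arrays. Groups came from the sample titles. R 4.3.3 and its packages limma (version 3.58.1; lmFit, then eBayes with a trend) and data.table (version 1.17.8) fitted 4 group means to 12 arrays, and 5 comparisons were adjusted by Benjamini-Hochberg over 13838 genes. The steps were tested on simulated data with independent noise and no replicate or spike-in batch, so that test does not cover such a batch. The median SE was 0.367, and 0.519 for the interaction of field and line.

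Same-numbered arrays correlated at 0.188 to 0.615 after group means were removed, every pair over 0.1. Differently numbered arrays reached 0.235 between the lines without the field, where the lowest same-numbered pair was at 0.189. For the field in CL1-5 they reached 0.289, against 0.188. The correlations therefore do not settle a pairing, and the labels do not state one. The main fit used no pairing. The replicate block is an alternative, with values given where it changes a call. Replicate 1 of each group also lacked spike-in signal, so pairing and that batch cannot be told apart. Other alternatives were quantile normalization, centring, a pseudocount (5.05), 2 other filters and averaged probe sets. Further ones were leaving out x and s probe sets where a gene had others, no trend in eBayes and fits to the compared groups alone. The spike-in batch, low values raised to the median and leaving out each array were also used. Members named are those past the test in either line comparison, the 2 smallest p in each field comparison, those whose probe sets disagree, and up to 4 genes per list past the test in both; others were chosen after their values were seen. The members and lists were chosen with earlier results of these data known. Start site windows are RefSeq's (GRCh38.p14).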

Additional observations from a re-analysis of the deposited data

How the results depend on the processing

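The direction and call of 12 of the 14 members past the test were kept under every alternative that still tested them. HOXB5, HOXB7 and HOXC6 have only x or s probe sets, so leaving these out was no check for them. HOXB5 and HOXB7 kept the same values there, −2.61 and 1.89 without the field. HOXC4 and HOXC8 lost their calls in some alternatives. With only the groups compared HOXC8 was at adjusted p = 0.0647 without the field and 0.0555 under it and HOXC4 at 0.0791 under it. Without a filter they were at 0.0529 and 0.0579 under it, and over the arrays with spike-in signal at 0.0717 and 0.149. The count of all genes past the test rose from 2487 without the field to 4921 with the replicate block, 4843 with the spike-in as a block and 4280 over the arrays with spike-in signal, and from 2691 under the field to 5277, 5195 and 4414. Members higher under the field went from 4 to 7 with the spike-in block and to 7 with low values raised to the median. Leaving out 1 array gave 1720 to 2834 genes without the field and 1834 to 2890 under it, 4 to 5 members higher in either setting, and 8 to 11 and 8 to 10 lower. The field count in CL1-0 was 0 to 1, the 1 without replicate 3 of CL1-0 under the field.

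Signs turned only for values that did not pass. HOXB6 was at 0.32 and 0.43 without x and s probe sets. HOXB8 without the field was at −0.06 with quantile normalization, −0.08 with centring, −0.0016 with the pseudocount and −0.09 with low values raised, and between −0.32 and 0.41 when an array was left out. HOXC13 without the field lay between −0.83 and 0.46 when an array was left out. HOXD1 was at −0.76 under the field and −0.05 for the field in CL1-5 with averaged probe sets, and HOXA2 at −0.02 for the field in CL1-5 with low values raised. The cause of these shifts was not tested. The replicate block, taken as a pairing, left the field counts at 0, and changed no call of a HOX gene other than those given with it. The HOXD10 interaction of field and line, −1.19, turned to 0.35 with low values raised.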
